A study of Mus musculus with 8 samples.

Results

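Epithelioid hemangioendothelioma (EHE) is a tumour of vascular endothelium in which the gene WWTR1 is often fused to CAMTA1. The genes described here are 10 mouse genes, chosen by name: the fusion genes Wwtr1 and Camta1, their paralogues Yap1 and Camta2, the transcription factor genes Tead1, Tead2, Tead3 and Tead4, and the TEAD cofactor genes Vgll3 and Vgll4. They are 10 of the 55401 gene identifiers counted, and all 10 were found by symbol. Polyadenylated RNA of 3 mouse EHE cell lines was read: 3 libraries came from EHE6, 3 from EHE17 and 2 from EHE26, named below by line and replicate number. The labels give the name of the line alone. The genotype of the lines, the form of any fusion allele, the tumour of origin, the culture conditions and whether a line is a clone are not given in the sources used here.

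Wwtr1 encodes TAZ, which with its paralogue YAP (Yap1) is the output of the Hippo pathway. Neither protein binds DNA by itself. When the LATS kinases do not hold them in the cytoplasm, they enter the nucleus and act through the TEAD factors, which carry the DNA-binding domain. VGLL proteins also bind TEADs, and VGLL4 is known as an antagonist of YAP. CAMTA1 and CAMTA2 are calmodulin-binding transcription activators. In the human fusion the start of TAZ, with its TEAD-binding part, is joined to the end of CAMTA1. Read counts per gene add up reads from the unfused gene and any reads of a fused transcript that align to it. A value for Wwtr1 or Camta1 below does not tell these apart. As the form of any fusion allele is not given, how much of a fused transcript these counts hold is unknown.

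The TEAD genes are close paralogues, so the coding sequences of the members were compared for stretches a short read could not place. The longest run of identical bases between Tead3 and Tead4 was 59 bases, and between Tead2 and Tead3 it was 35 bases. The next longest was 23 bases, between Tead2 and Tead4. The longest run was 17 bases in each pair with Tead1, 20 bases between Camta1 and Camta2, 15 between Wwtr1 and Yap1, and 10 between Vgll3 and Vgll4. The sequences of the Tead3 and Tead4 run and of the run shared by Wwtr1 and Yap1 are shown because they bear on how far the counts of these genes can be separated. They are GENCODE M21 coding sequence (GRCm38), 5′ to 3′, with the shared run in capitals and the flanking bases in lower case.
Tead3: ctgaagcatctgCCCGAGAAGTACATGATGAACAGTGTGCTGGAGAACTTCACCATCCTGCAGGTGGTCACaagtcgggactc
Tead4: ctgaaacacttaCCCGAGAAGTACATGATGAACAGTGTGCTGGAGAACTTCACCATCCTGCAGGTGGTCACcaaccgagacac
Wwtr1: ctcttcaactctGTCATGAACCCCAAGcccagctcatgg
Yap1: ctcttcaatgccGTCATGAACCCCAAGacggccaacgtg
The Tead3 run lies on the minus strand of chromosome 17 between 28332826 and 28333001 and the Tead4 run on the minus strand of chromosome 6 between 128228472 and 128228618, each across a splice junction. The read length and the treatment of reads with several matches are not given in the sources used here.

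A second set of sequences is shown for the promoters. The TEAD binding motif was searched as GGAATG on both strands (CATTCC on the other) in RefSeq windows of 300 bases, from 250 before to 50 after each annotated start (GRCm38.p6). Of the members 8 had a window, and 6 of these held at least 1 match, against 16.6% of all genes with a window. Tead3 had the most of the members, 3 matches within a window, and 0.152% of genes had at least as many. Wwtr1, Yap1, Camta2, Vgll3 and Vgll4 had 1 match, and Camta1 and Tead2 had 0. Tead3 has 3 windows, which gives it more places for a match than a gene with 1. The sites below show the motif in capitals, as it reads on the strand of the gene, 5′ to 3′.
Tead3, minus strand, chr17:28350970-28350999: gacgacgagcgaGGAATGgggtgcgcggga
Tead3, minus strand, chr17:28350706-28350735: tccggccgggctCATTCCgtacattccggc
Tead3, minus strand, chr17:28350697-28350726: gctcattccgtaCATTCCggccatccccct
Tead3, minus strand, chr17:28350581-28350610: aggtaagcccggGGAATGcaactcggaggc
Wwtr1, minus strand, chr3:57576029-57576058: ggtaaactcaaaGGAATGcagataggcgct
Yap1, minus strand, chr9:8004720-8004749: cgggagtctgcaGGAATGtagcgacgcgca
The windows printed for the middle pair of Tead3 sites overlap, while their motif matches do not. The sites of Camta2, Vgll3 and Vgll4 are not printed. A match is a description of these letters and not a measured binding site, and its part in any level was not tested.

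The libraries held 44620965 to 96237665 counted reads. They were split into 2 sets that cross the lines, by the sign of the first principal component of expression. That component used all genes tested below, the members and most listed markers among them. Differences between the sets are therefore descriptions, partly fixed by how the sets were made. Replicates 1 and 2 of EHE6 and of EHE17 formed the first set, and replicate 3 of EHE6, replicate 3 of EHE17 and both EHE26 libraries the second. On that component EHE17 replicate 3 (41.69) lay between the first set (-121.9 to -102.6) and the rest of the second (126.2 to 148). Every second-set value of EHE17 below rests on this library alone. The first-set libraries held 69366708 to 96237665 counted reads and 24462 to 25177 genes with a read. Those of the second set held 44620965 to 55802651 reads and 20066 to 20682 genes, with no overlap. Both EHE26 libraries are thus of the shallower set. The part of depth in differences between sets, or between EHE26 and the other lines, was not tested. The 10 endothelial marker genes listed for the check of identity were read in every line. Their summed level was 2665 to 12076 CPM (defined below) in EHE6, 6159 to 10035 in EHE17 and 3891 to 4961 in EHE26, lowest in EHE6 replicate 3. Single markers, chosen here after their values were seen, differed from the sum. Pecam1 was at 1179 to 1675 CPM over all libraries. In EHE6 replicate 3 and EHE26 replicates 1 and 2, Cldn5 was at 1.05, 7.95 and 0.526 CPM, against 279 to 770 elsewhere. Kdr was at 22.1, 102 and 46.2 CPM there, against 243 to 1042. Emcn was at 10.1, 364 and 28.7 CPM there, against 108 to 438. The 6 leukocyte markers summed to at most 31.4 CPM in any library, with Cd3e at 0 in all but 2 libraries. The 7 fibroblast and mesenchymal markers summed to 36.2 to 490 CPM. The 6 epithelial markers summed to at most 89.8 CPM, in EHE6 replicate 3, where Krt18 was at 89.2 CPM. Others, chosen here after their values were seen, were higher in the first set. Epcam was at 3.89 to 9.79 CPM there, Cdh1 at 4.25 to 8.08 CPM and Krt8 at 4.87 CPM or more. In the second set they reached at most 0.0368, 0.0368 and 0.420 CPM. Krt18 and Krt14 did not follow the sets. The part of these in differences between sets was not tested. The 5 smooth muscle and pericyte markers summed to 201 to 670 CPM in EHE6, 7.50 to 59.8 in EHE17 and 91.0 to 123 in EHE26, and 1 of them, Cspg4, was the only listed gene called (higher in EHE26 than in EHE17). The EHE6 sum was mostly Acta2 in replicates 1 and 2 (659 and 268 CPM). In replicate 3 it was mostly Rgs5 (183 CPM), with Acta2 at 15.1 CPM. The 6 proliferation markers summed to 350 to 828 CPM in the first set and to 1155 to 2405 CPM in the second, highest in EHE6 replicate 3. For Tead3, Yap1, Tead2, Tead4 and Vgll3, values without EHE6 replicate 3 are also given below. In such bulk samples fewer cells with a transcript and less of it per cell cannot be told apart.

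Levels below are CPM, the reads of a gene as a share of the TMM-scaled library size. Lines were compared with edgeR's quasi-likelihood test on all 8 libraries. Calls needed a change of 2-fold or more in either direction (1 log2 unit) with an adjusted p below 0.05 across the 18882 genes tested. All 10 members were tested, and none was called in any comparison of lines. Among all tested genes the share called was 0.143% between EHE17 and EHE6, 1.26% between EHE26 and EHE6 and 1.08% between EHE26 and EHE17, so a count of 0 in 10 is near the background. At an unadjusted p under 0.05 the counts were 2 members (Vgll3 and Vgll4), 1 (Camta2) and 0 in that order, where 6.90%, 15.9% and 16.6% of all tested genes had one. DESeq2 called 1 member, Vgll3, in the first comparison and none in the others, but gave no adjusted p for Tead3. The median log2 fold change of the members was 0.31, 0.23 and -0.10, beside -0.035, -0.11 and -0.11 for all tested genes. Whether replicates were grown separately is not given, and p-values then reflect the scatter of these libraries, which may be technical.

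**Figure D1:**
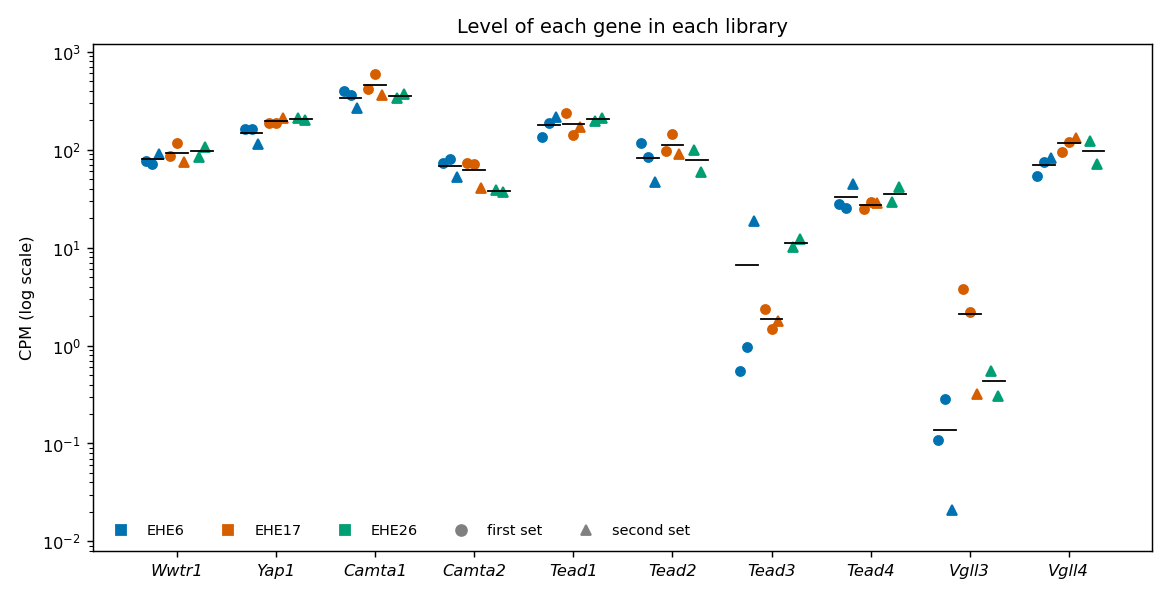
Level of the 10 genes in each library in CPM (log scale), coloured by line, with circles for the first set and triangles for the second set of libraries and a bar at the mean of each line. For 8 genes the libraries lie within 3.12-fold of each other, while Tead3 and Vgll3 are lower and spread over more than a decade.

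Wwtr1 (ENSMUSG00000027803, chromosome 3, 57455649 to 57575910, minus strand, GRCm38) was present at a similar level in every library. It was at 76.4, 72.1 and 89.8 CPM in EHE6 replicates 1, 2 and 3, at 87.1, 116 and 74.5 CPM in EHE17, and at 84.8 and 107 CPM in EHE26. The highest library was EHE17 replicate 2 and the lowest EHE6 replicate 2, and the 3 lines overlapped. Relative to EHE6, its log2 fold change was 0.22 ± 0.24 (SE) in EHE17 and 0.27 ± 0.27 in EHE26, and EHE26 against EHE17 it was 0.053 ± 0.27. The 95% intervals ran from -0.34 to 0.78, from -0.35 to 0.89 and from -0.57 to 0.68, so each of them leaves out a change of 2-fold in either direction. Its SD over the 8 libraries, 0.25 log2 units, was larger than that of 7.07% of the tested genes.

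Yap1 (ENSMUSG00000053110, chromosome 9, 7931999 to 8004596, minus strand) encodes the paralogue of TAZ and was lowest in EHE6. It was at 164, 163 and 114 CPM in EHE6 replicates 1, 2 and 3, at 186, 187 and 211 CPM in EHE17, and at 208 and 203 CPM in EHE26. The EHE6 libraries all lay below those of the other lines, and EHE17 and EHE26 overlapped. Separation of this kind is common here: it was found in 12.2% of all tested genes between EHE17 and EHE6, in 31.3% between EHE26 and EHE6 and in 39.0% between EHE26 and EHE17. Of the members it was found in 3 (Yap1, Vgll3 and Vgll4), 3 (Yap1, Camta2 and Vgll3) and 2 (Camta2 and Tead3) in that order. Yap1 had a log2 fold change of 0.40 ± 0.22 for EHE17 against EHE6 (interval -0.10 to 0.91, edgeR adjusted p = 0.843) and 0.48 ± 0.24 for EHE26 against EHE6 (interval -0.079 to 1.04, edgeR adjusted p = 0.363). In the second set alone these values were 0.88 and 0.84, and in the first set EHE17 against EHE6 was 0.20. Without EHE6 replicate 3 they were 0.27 and 0.34.

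Camta1 (ENSMUSG00000014592, chromosome 4, 150917322 to 151861876, minus strand), the second fusion gene, had the most reads of the members. It was at 395, 364 and 264 CPM in EHE6 replicates 1, 2 and 3, at 413, 595 and 364 CPM in EHE17, and at 337 and 373 CPM in EHE26. The highest value was EHE17 replicate 2, the lowest EHE6 replicate 3, and all lines overlapped. Relative to EHE6, its log2 fold change was 0.42 ± 0.27 in EHE17 (interval -0.20 to 1.05) and 0.058 ± 0.30 in EHE26 (-0.64 to 0.76), and EHE26 against EHE17 it was -0.37 ± 0.31 (-1.07 to 0.34). The span of Camta1 holds other genes, among them Per3 and Vamp3 on its strand, but shares no exon base with them.

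Camta2 (ENSMUSG00000040712, chromosome 11, 70669463 to 70688105, minus strand) was lowest in EHE26. It was at 73.7, 80.2 and 52.1 CPM in EHE6 replicates 1, 2 and 3, at 73.6, 70.7 and 40.7 CPM in EHE17, and at 38.7 and 37.3 CPM in EHE26. Both EHE26 libraries lay below all others, though EHE17 replicate 3 came within a few CPM of them. In each of EHE6 and EHE17 replicate 3, of the second set, was the lowest library. For EHE26 against EHE6 the log2 fold change was -0.86 ± 0.33 (interval -1.62 to -0.088, unadjusted p = 0.0331, edgeR adjusted p = 0.291) and for EHE26 against EHE17 it was -0.70 ± 0.33 (interval -1.46 to 0.063, edgeR adjusted p = 0.326). With set as a term in the fit these values were -0.37 and -0.19, and in the second set alone -0.46 and -0.098, so the difference was smaller where libraries of the same set were compared. In the second set the endothelial marker sum was also lower (2665 to 6159 against 8991 to 12076 CPM) and the proliferation marker sum higher, as given above, and their part in the Camta2 difference was not tested. EHE17 against EHE6 was -0.16 ± 0.29.

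**Figure D2:**
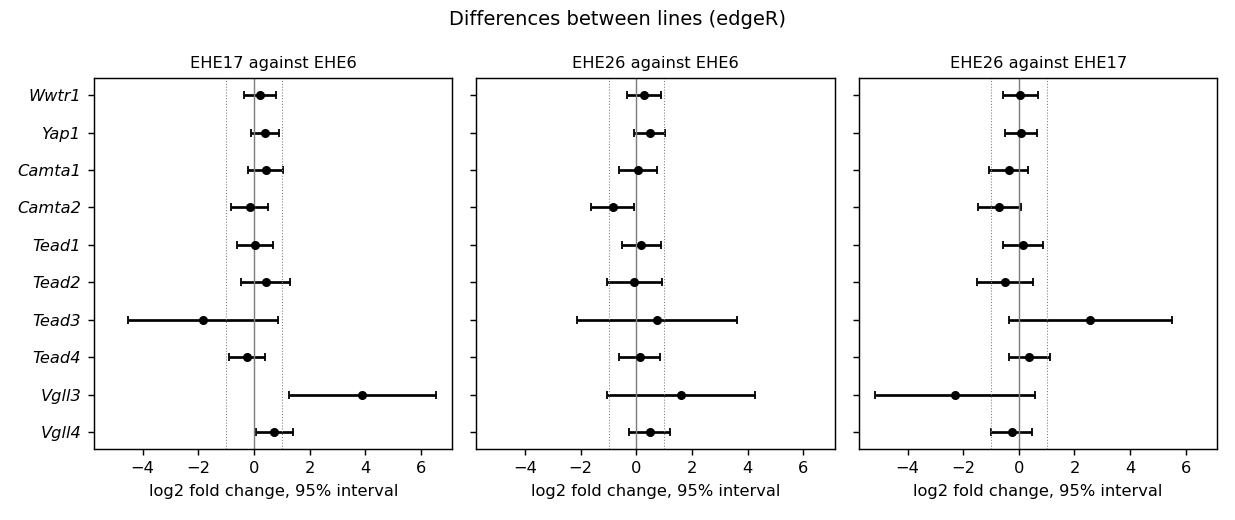
Log2 fold change of each gene between lines from edgeR, with 95% intervals as bars and dotted lines at 2-fold in each direction. Most intervals are centred near 0 and under 2 units wide, and those of Tead3 and Vgll3 reach up to 5.50 and 6.55.

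Tead1 (ENSMUSG00000055320, chromosome 7, 112679318 to 112906807, plus strand) and Tead4 (ENSMUSG00000030353, chromosome 6, 128224288 to 128300823, minus strand) were at like levels in the 3 lines. Tead1 was at 134, 189 and 215 CPM in EHE6 replicates 1, 2 and 3, at 239, 142 and 171 CPM in EHE17, and at 197 and 211 CPM in EHE26. Tead4 was at 27.7, 25.5 and 44.6 CPM in EHE6, at 24.7, 29.3 and 28.6 CPM in EHE17, and at 29.3 and 41.9 CPM in EHE26. The lines overlapped for both genes, and the highest Tead4 value was EHE6 replicate 3. Log2 fold changes of Tead1 were 0.035 ± 0.28, 0.18 ± 0.31 and 0.15 ± 0.31 for EHE17 against EHE6, EHE26 against EHE6 and EHE26 against EHE17, with every interval inside 2-fold. For Tead4 they were -0.25 ± 0.29, 0.12 ± 0.32 and 0.37 ± 0.32, with intervals inside 2-fold except the last, which reached 1.10. Without EHE6 replicate 3, the Tead4 change of EHE17 against EHE6 was 0.062, with the sign reversed.

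Tead2 (ENSMUSG00000030796, chromosome 7, 45215753 to 45233644, plus strand) varied more, within lines rather than between them. It was at 117, 84.0 and 46.3 CPM in EHE6 replicates 1, 2 and 3, at 97.1, 145 and 90.5 CPM in EHE17, and at 98.1 and 59.2 CPM in EHE26. The lowest library was again EHE6 replicate 3, and all lines overlapped. Log2 fold changes were 0.43 ± 0.39, -0.068 ± 0.43 and -0.49 ± 0.44 in the order above, and none of the 3 intervals excluded a change of 2-fold. Without EHE6 replicate 3 the comparisons with EHE6 were 0.15 for EHE17 and -0.35 for EHE26. Of the exon bases of Tead2, 13 are shared with Cd37 on the opposite strand, and the strand setting of the counts is not given.

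Tead3 (ENSMUSG00000002249, chromosome 17, 28331671 to 28350817, minus strand) was the scarcest TEAD and the one that varied most. It was at 0.552, 0.960 and 18.6 CPM in EHE6 replicates 1, 2 and 3, from 41, 68 and 885 reads. EHE17 had 2.39, 1.47 and 1.79 CPM (192, 133 and 89 reads), and EHE26 had 10.1 and 12.2 CPM (551 and 555 reads). Both EHE26 libraries thus lay above all EHE17 libraries, while EHE6 held the lowest and the highest values of all. EHE26 against EHE17 gave a log2 fold change of 2.57 ± 1.27 (5.92-fold, interval -0.37 to 5.50, edgeR adjusted p = 0.342), so Tead3 was not called with all libraries in the fit. It was called at about the same size when the EHE6 libraries did not enter the estimate of the spread (2.56, edgeR adjusted p = 0.0241) and when EHE6 replicate 3 was left out (2.56, edgeR adjusted p = 0.0139). Over the alternatives tried that adjusted p ran from 0.0139 to 1.0, and with the set as a term the change was 0.11. In the second set alone it was 2.64 and not called (edgeR adjusted p = 0.0507), and with the replicate block 3.06 (edgeR adjusted p = 0.0952).

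For Tead3, both comparisons with EHE6 turned on replicate 3 of that line. EHE17 against EHE6 was -1.83 ± 1.17 with all libraries and 1.33 without that replicate, and with replicate number as a block it was 0.015 (edgeR adjusted p = 0.9998). In the first set alone it was 1.36, and in the second set alone, where EHE6 and EHE17 have 1 library each, -3.38 (edgeR adjusted p = 0.0434, the lowest over the alternatives, which reached 1.0). The spread in that fit comes from the 2 EHE26 libraries alone, so its p carries no replicate of either line compared. EHE26 against EHE6 was 0.74 ± 1.25 with all libraries (edgeR adjusted p = 0.827), 3.89 and called without EHE6 replicate 3 (edgeR adjusted p = 0.00702, against up to 1.0 in the other alternatives), and -0.74 in the second set alone. In that replicate the endothelial markers were lowest and the proliferation markers highest of the EHE6 libraries. Of the listed mesenchymal and pericyte markers Pdgfra, Pdgfrb and Cspg4, chosen here after their values were seen, were high in the same 3 libraries as Tead3. In EHE6 replicate 3, EHE26 replicate 1 and EHE26 replicate 2, Pdgfra was at 252, 77.5 and 59.8 CPM, Pdgfrb at 21.98, 63.0 and 28.9 CPM and Cspg4 at 2.02, 18.5 and 24.5 CPM. In the other 5 libraries they reached at most 5.21, 2.14 and 0.607 CPM. The other markers of these lists did not have that pattern in full, and those given next were also chosen after their values were seen. Col1a1 was at 1.003 to 7.75 CPM and Acta2 at 7.20 to 659 CPM. Col1a2 was at 0.129 and 0.132 CPM in EHE26 replicates 1 and 2, and Dcn at 0.966 CPM in EHE6 replicate 3. Col3a1 was at 6.49 CPM in EHE6 replicate 3 but at 116 and 198 CPM in EHE17 replicates 1 and 2. Rgs5 was at 7.30 CPM in EHE26 replicate 1 and 9.92 CPM in EHE6 replicate 2. The part of any of these in the Tead3 value was not tested. Tead4, whose longest run of identical coding bases with Tead3 was 59 bases, was at its highest in EHE6 replicate 3, at 44.6 CPM. Whether reads of the 2 genes were mixed was not tested.

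The levels of the 4 TEAD genes were set side by side per kb of exon, since a longer transcript gives more reads. By the union of exons, Tead2 made up 44.6% ± 12.7 (SD, n = 8 libraries of 3 lines) of the summed TEAD level, Tead1 32.6% ± 6.85, Tead4 20.7% ± 5.55 and Tead3 2.13% ± 2.45. The shares of Tead1 and Tead2 overlapped between libraries, and Tead2 was ahead of Tead1 in 6 of 8. The exceptions were EHE6 replicate 3 (Tead2 23.8%, Tead1 39.0%) and EHE26 replicate 2 (29.9% and 37.6%). The Tead3 share was 6.80% in EHE6 replicate 3, 3.38% and 4.38% in EHE26, and between 0.195% and 0.788% in the other 5 libraries.

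**Figure D3:**
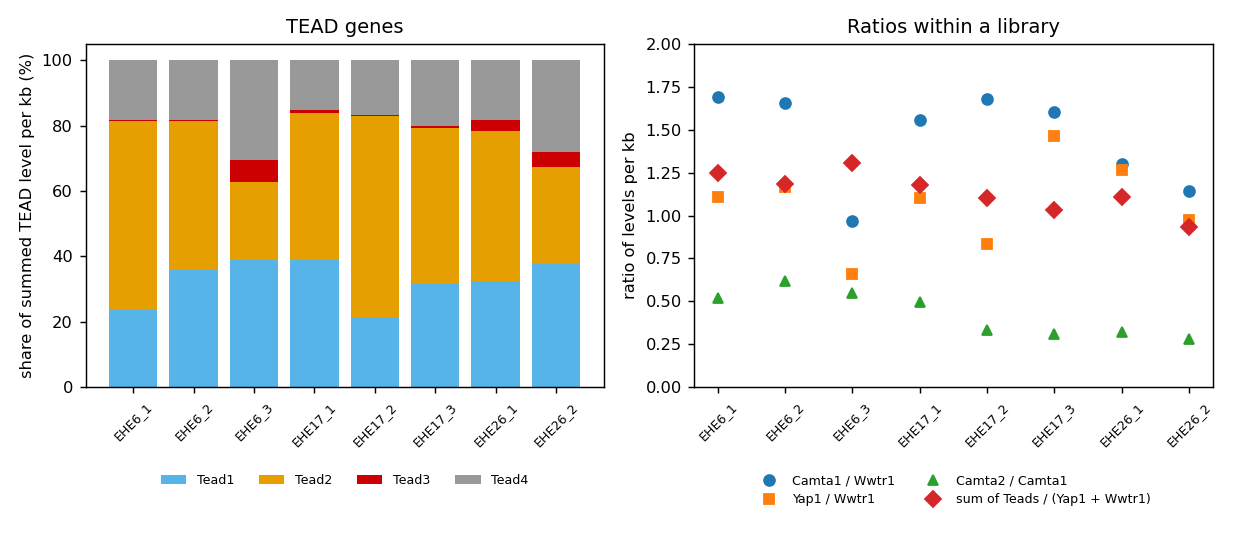
Left, share of each TEAD gene in the summed TEAD level per kb in each library, in percent. Right, ratios of levels per kb within each library. The Tead3 share is largest in EHE6 replicate 3 (6.80%), and the ratio of Camta2 to Camta1 lies at 0.523 or above in EHE6 and at 0.498 or below in the other lines.

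Vgll3 (ENSMUSG00000091243, chromosome 16, 65815257 to 65866368, plus strand), which encodes a TEAD cofactor, had few reads outside EHE17 replicates 1 and 2. It had 8, 20 and 1 reads in EHE6 replicates 1, 2 and 3, or 0.108, 0.282 and 0.0210 CPM. EHE17 had 304, 201 and 16 reads (3.78, 2.22 and 0.321 CPM), and EHE26 had 30 and 14 reads (0.552 and 0.307 CPM). The EHE17 libraries all lay above those of EHE6, but EHE17 replicate 3 did so by less than counting error: its exact Poisson interval (95%, counting error only) was 0.183 to 0.521 CPM, against 0.172 to 0.436 for EHE6 replicate 2. The interval of the single read in EHE6 replicate 3 was 0.000532 to 0.117 CPM. EHE17 against EHE6 gave a log2 fold change of 3.90 ± 1.15 (15.0-fold, interval 1.25 to 6.55, unadjusted p = 0.0094, edgeR adjusted p = 0.448). DESeq2 called it at the same size (3.90, adjusted p = 0.0168), and over the alternatives the change was 3.17 to 4.95 and the adjusted p 0.0168 to 0.847. The replicate block gave 3.87 and an edgeR adjusted p of 0.158. EHE26 against EHE6 was 1.61 ± 1.16, and 4.2 in the second set alone, where EHE6 has the single read. It was 1.15 without EHE6 replicate 3, 2.65 without EHE6 replicate 2 and 1.13 without EHE26 replicate 1. EHE26 against EHE17 gave -2.29 ± 1.25, which was 0.42 in the second set alone and -2.79 to -1.56 with a library left out.

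Vgll4 (ENSMUSG00000030315, chromosome 6, 114860628 to 114969994, minus strand) had more reads than Vgll3 in every library. It was at 53.2, 74.1 and 81.5 CPM in EHE6 replicates 1, 2 and 3, at 94.6, 120 and 132 CPM in EHE17, and at 122 and 71.1 CPM in EHE26. All EHE17 libraries lay above those of EHE6, and EHE26 overlapped both lines. EHE17 against EHE6 gave 0.73 ± 0.29 log2 units (1.66-fold, interval 0.064 to 1.40, unadjusted p = 0.0355, edgeR adjusted p = 0.671). It was 0.77 in the first set and 0.70 in the second, and between 0.57 and 0.88 when a library was left out. EHE26 against EHE6 was 0.47 ± 0.32 and EHE26 against EHE17 -0.26 ± 0.32. The former was 0.030 without EHE26 replicate 1 and 0.82 without EHE26 replicate 2, and the latter -0.70 and 0.085. The remaining family members, Vgll1 and Vgll2, had at most 0.0497 and 0.0282 CPM in a library.

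**Figure D4:**
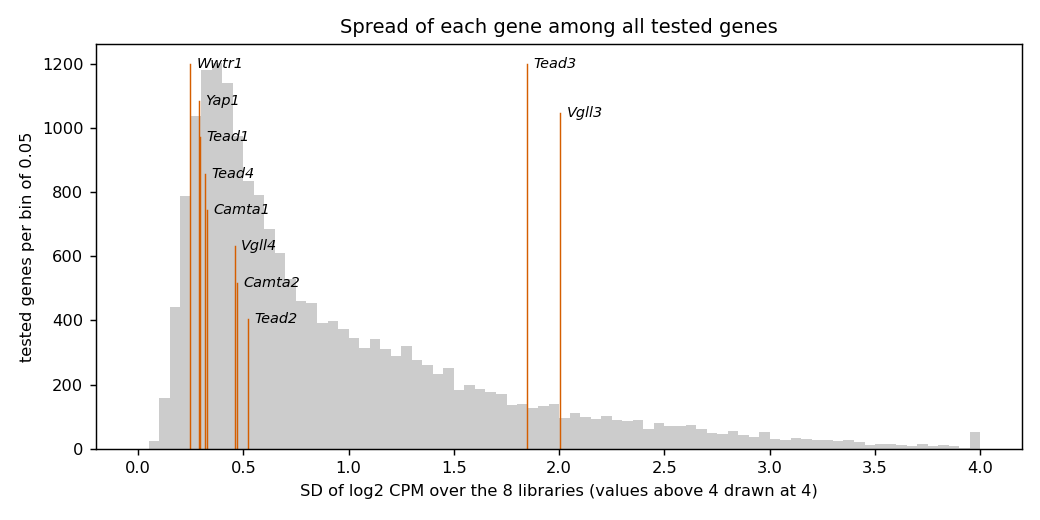
Histogram of the SD of log2 CPM over the 8 libraries for all 18882 tested genes, with a line at each of the 10 genes. Wwtr1, Yap1, Tead1, Tead4 and Camta1 lie among the steadier genes (SD 0.25 to 0.33, median of all tested genes 0.67), and Tead3 and Vgll3 lie at 1.85 and 2.0.

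The spread of the members over all 8 libraries thus fell into separate ranges. Wwtr1, Yap1, Tead1, Tead4 and Camta1 had an SD of 0.25 to 0.33 log2 units, below 83.6% or more of the tested genes. Camta2, Vgll4 and Tead2 had 0.46 to 0.52. Tead3 and Vgll3 had 1.85 and 2.0 and exceeded 87.9% and 90.2% of the tested genes. Vgll3 had as few as 1 read in a library, while Tead3 had at least 41 reads in each library.

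Across genes, levels were ordered per kb of exon. By the union of exons Camta1 was first, at 26.6 ± 6.50 CPM per kb (SD, n = 8), and ranked first or second in every library. Yap1 (19.4 ± 3.46), Tead2 (19.2 ± 6.46), Wwtr1 (18.5 ± 3.30) and Vgll4 (17.4 ± 5.28) followed and did not differ beyond their spread. Next came Tead1 (13.8 ± 2.67), Camta2 (11.2 ± 3.46) and Tead4 (8.74 ± 2.09), each within the spread of its neighbour, and then Tead3 (0.895 ± 1.01) and Vgll3 (0.134 ± 0.189), which held the last 2 ranks in all libraries. With the length of the longest transcript in place of the union, Vgll4 came second and Yap1 next, and the first and last 2 places were the same. The order in the middle therefore depends on the transcript assumed.

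Ratios within a library do not depend on its scaling, and 5 were compared between the lines, 15 tests in all. Exact two-sided permutation tests over libraries cannot go below p = 0.1 for 3 against 3 libraries or 0.2 for 3 against 2, so none could pass 0.05, and the lowest adjusted p was 0.429. Camta1 to Wwtr1 per kb was 1.69, 1.65 and 0.966 in EHE6 replicates 1, 2 and 3, 1.56, 1.68 and 1.60 in EHE17, and 1.30 and 1.14 in EHE26. EHE17 was the even line here and EHE6 replicate 3 the lowest library. The mean log2 ratio was 0.40 lower in EHE26 than in EHE17, with no overlap (exact permutation p = 0.2).

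Camta2 to Camta1 was 0.523, 0.617 and 0.552 in EHE6 replicates 1, 2 and 3, 0.498, 0.333 and 0.313 in EHE17, and 0.321 and 0.279 in EHE26. All EHE6 libraries lay above all others. The difference of mean log2 ratios was -0.59 for EHE17 against EHE6 and -0.91 for EHE26 against EHE6 (exact permutation p = 0.1 and 0.2, the smallest possible), and within the second set alone it was -0.82 and -0.88. The summed level of the TEAD genes relative to that of Yap1 and Wwtr1 was also highest in EHE6, at 1.25 ± 0.0610 (SD, n = 3), against 1.10 ± 0.0708 (SD, n = 3) in EHE17 and 1.02 ± 0.124 (SD, n = 2) in EHE26. The EHE6 libraries (1.19 to 1.31) did not overlap with those of the other lines (0.934 to 1.18), with differences of -0.18 and -0.29 on the log2 scale (exact permutation p = 0.1 and 0.2). By the longest transcript EHE6 was at 1.13 to 1.35 and EHE17 at 0.962 to 1.14, which overlap. Yap1 to Wwtr1 was 0.658 to 1.46 over all libraries, and every pair of lines overlapped. By the longest transcript that ratio was 1.13 to 2.52, so which coactivator gene has the higher level depends on the length used. Vgll4 to Vgll3 was 33.0 to 543 in EHE17, 292 and 305 in EHE26 and 346 to 5104 in EHE6, where the highest value rests on a single Vgll3 read.

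The genes upstream and downstream of the members were described from lists of named genes. Among all tested genes 0.143%, 1.26% and 1.08% were called for EHE17 against EHE6, EHE26 against EHE6 and EHE26 against EHE17. A short list without a call is near that background. At an unadjusted edgeR p under 0.05 the shares were 6.90%, 15.9% and 16.6%. Of 25 Hippo regulators (kinases, scaffolds and YAP-binding proteins), all were tested and none was called in any comparison. Their medians were 0.0035, 0.15 and -0.050 log2 units beside -0.035, -0.11 and -0.11 for all tested genes. An unadjusted p under 0.05 was found in 2, 0 and 4 of them. The kinase gene Lats1 was at 39.8 ± 18.2 CPM in EHE6 (SD, n = 3), 25.9 ± 5.57 in EHE17 (n = 3) and 55.9 ± 18.7 in EHE26 (n = 2), and Lats2 at 79.7 ± 14.1, 110 ± 15.2 and 79.9 ± 14.9 CPM. The kinase genes Stk3 and Stk4, which act on the LATS kinases, were at 91.9 ± 27.4 and 31.0 ± 14.6 CPM in EHE6, 57.5 ± 23.4 and 29.3 ± 6.32 in EHE17, and 70.3 ± 7.78 and 37.8 ± 5.36 in EHE26. Nf2, which encodes the scaffold merlin, was at 103 ± 22.1, 125 ± 30.0 and 117 ± 10.6 CPM in the 3 lines.

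Of 17 other TEAD cofactors (nuclear coactivators, AP-1 subunits, corepressors and Vgll1 and Vgll2), 15 were tested and none was called. Their medians were 0.071, -0.029 and -0.057, and 0, 2 and 1 had an unadjusted edgeR p under 0.05. Of 22 common YAP and TAZ target genes all were tested and none was called. Their medians were 0.054, 0.18 and -0.043, beside -0.035, -0.11 and -0.11 for all tested genes. An unadjusted p under 0.05 was found in 3, 3 and 6 targets, beside 6.90%, 15.9% and 16.6% of all tested genes. Single targets still differed widely between libraries. The matricellular gene Ccn2 was at 52.7, 87.7 and 1.18 CPM in EHE6 replicates 1, 2 and 3, 62.0, 49.7 and 1.85 in EHE17, and 2.45 and 0.943 in EHE26. High and low libraries of Ccn2 thus followed the sets and not the lines. Ccn1 was at 131 ± 53.3, 176 ± 74.2 and 59.4 ± 7.0 CPM in EHE6, EHE17 and EHE26, and Ankrd1 at no more than 0.969 CPM in any library. Axl, a receptor tyrosine kinase in that list, was chosen here after its values were seen: it was at 23.0, 23.6 and 1023 CPM in EHE6, 22.2, 10.2 and 6.78 in EHE17, and 582 and 1061 in EHE26, high in the same 3 libraries as Tead3. Its change of EHE26 against EHE17 was 5.98 ± 1.67 (edgeR adjusted p = 0.156) and not called.

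The ATAC histone acetyltransferase complex is a known partner of the fusion protein in human EHE. None of its 11 genes was called, which is near the background share given above. Their medians were -0.049, -0.17 and -0.18 log2 units, beside -0.035, -0.11 and -0.11 for all tested genes. Its summed level was 451 to 527 CPM over all 8 libraries. The subunit genes Yeats2 and Zzz3 were at 49.2 ± 18.9 and 79.3 ± 14.1 CPM in EHE6, 57.8 ± 12.4 and 78.0 ± 30.4 in EHE17, and 43.7 ± 2.97 and 69.1 ± 3.91 in EHE26. Tfe3, whose human counterpart is the partner of YAP1 in a rarer EHE fusion, was at 47.6, 44.8 and 50.2 CPM in EHE6 replicates 1, 2 and 3, 75.4, 108 and 62.5 in EHE17, and 58.2 and 48.2 in EHE26. All EHE17 libraries were above the others. Its log2 fold change in EHE17 against EHE6 was 0.79 ± 0.25 (unadjusted p = 0.0143, edgeR adjusted p = 0.522) and it was not called. None of the 4 genes of the Tfe3 family was called, again near the background share.

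The genes most like a member in pattern were those with the smallest root mean square difference of log2 CPM over the 8 libraries, each gene centred on its own mean. The libraries share lines, sets and depth, so likeness is a description. Gata2, Rorb and Kazald1 were most like Tead3, at differences of 0.45, 0.42 and 0.46 log2 units. Gata2, an endothelial and haematopoietic transcription factor gene, was at 21.3, 24.2 and 478 CPM in EHE6 replicates 1, 2 and 3, 32.1, 37.2 and 53.7 in EHE17, and 174 and 201 in EHE26. It was thus high in the same 3 libraries as Tead3. Podxl2, C3 and Tslp were most like Vgll3 (0.74, 0.96 and 1.01 log2 units), and all 3 were at their highest in EHE17 replicate 1. For the steady genes the differences were smaller, as for many genes that vary little: Zfp526, Hibadh and Spg7 were most like Wwtr1 (0.064, 0.093 and 0.097) and Pex6, Trap1 and Fam174a most like Camta1 (0.073, 0.081 and 0.093).

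**Figure D5:**
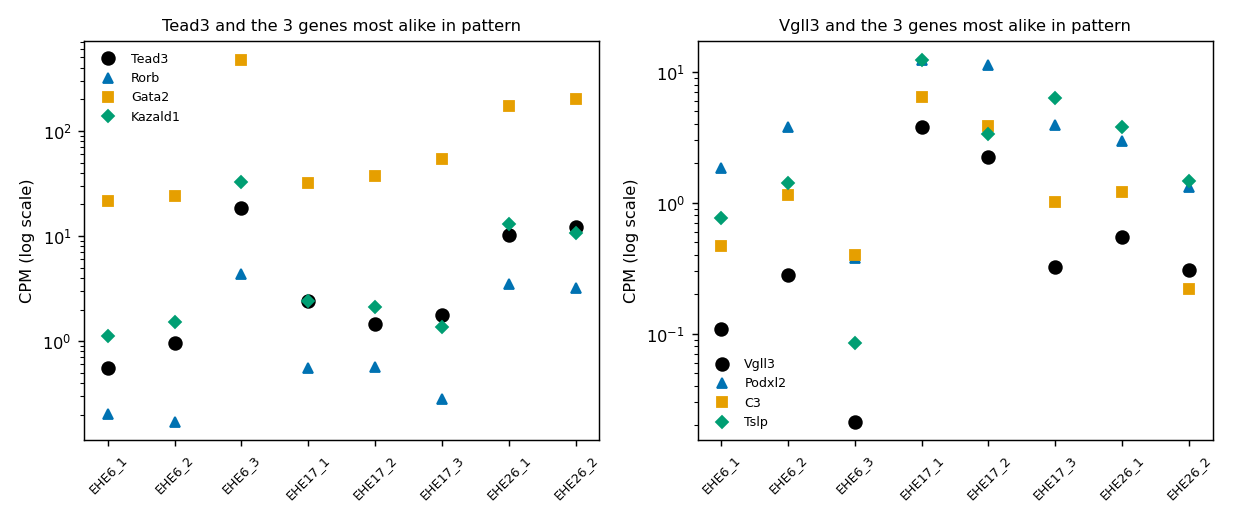
Level in each library (CPM, log scale) of Tead3 with Gata2, Rorb and Kazald1 on the left and of Vgll3 with Podxl2, C3 and Tslp on the right. Tead3 and its like genes are high in EHE6 replicate 3 and both EHE26 libraries, and Vgll3 is highest in EHE17 replicates 1 and 2.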

How the data were processed

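Raw counts per Ensembl gene were deposited by the authors. Reads were aligned with HISAT2 to mm10, per the submitters' processing notes. The counting tool, annotation and strand setting are not given in the sources used here. Per the labels, RNA was polyA-selected. The file of each sample equalled its column in the series table (8 of 8). Symbols and positions came from GENCODE M21.

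Counts were filtered (filterByExpr), scaled with TMM and fitted with edgeR 4.0.16 (limma 3.58.1, R 4.3.3), with the line as the only term and Benjamini-Hochberg adjustment. Alternatives were DESeq2 1.42.0, RLE scaling, no low-count filter, a replicate block, the set as a term, fits within a set or to the lines compared, and leaving out each library. SE is the log2 fold change divided by the square root of F, and 95% intervals use the same fit. The fit was tested on simulated data. Ratios used scipy 1.17.1.

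Named genes are the 10 members, up to 4 called genes and 12 preset genes of the lists (1 is not reported here), and for Wwtr1, Camta1, Tead3 and Vgll3 the 3 genes most alike among those of at least 1 CPM; predicted and Y-linked genes and Xist were not considered. Other genes are named only for a sequence overlap, as list members with few reads or, where said, after their values were seen. Members and lists were chosen with earlier results of these data known.

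Between EHE6 and EHE17, deviations from the line means correlated across genes, for replicates 1, 2 and 3, at 0.132, 0.18 and 0.574. Replicate 1 of each correlated more with replicate 2 of the other (0.536 and 0.623), so numbers 1 and 2 do not mark pairs. The EHE26 libraries did not pair by number either. The main fit was therefore read without pairs, and the replicate block served only as an alternative.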

Additional observations from a re-analysis of the deposited data

How the results depend on the processing

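No member was called in 455 of 460 refits of a member's change, 3 of which (Tead3 in DESeq2) had no adjusted p. The 5 calls, 4 of Tead3 and 1 of Vgll3, are given above, and the cause was not tested. The Tead3 call in the second set alone rests on the spread of 2 EHE26 libraries, with 1 library in each line compared. Low read counts limit the values of Vgll3, with 1 to 30 reads in 6 libraries.

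Counts of called genes moved more. From 27 for EHE17 against EHE6 they went to 390 (DESeq2), 142 (no low-count filter), 102 (set as a term), 7 (only the lines compared), 97 (first set) and 473 (second set), and to 1 to 54 with a library left out (54 without EHE6 replicate 3, 1 without EHE17 replicate 1). From 237 for EHE26 against EHE6 they went to 1562, 547, 356 and 126 under the first 4 of these, and to 65 to 1632 with a library left out (1632 without EHE6 replicate 3). From 203 for EHE26 against EHE17 they went to 1685, 745, 319, 764 and, in the second set, 612, and to 2 to 1415 with a library left out (2 without EHE17 replicate 2, 1415 without EHE6 replicate 3). In each comparison, leaving out any library but EHE17 replicate 3 moved the count by over 1.5 times. With the replicate block the counts were 33, 1459 and 1860, and no call of a member changed. EHE26 libraries correlated with those of their number in the other lines at -0.115 to 0.182, so they did not pair.

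The sign of an uncalled value changed in 32 refits, and the cause was not tested. For EHE17 against EHE6 these were Wwtr1 (-0.27), Tead1 (-0.34) in the second set, Tead4 (0.032) and Tead3 (1.36) in the first set, and Tead3 with the replicate block (0.015) and the set as a term (0.025). For EHE26 against EHE6 they were Camta1 with the block (-0.092), Tead2 (0.51) and Tead4 (-0.12) with the set as a term, and Tead1 (-0.080), Tead2 (0.76), Tead3 (-0.74) and Tead4 (-0.33) in the second set. For EHE26 against EHE17 they were Tead2 (0.012) and Vgll3 (0.40) with the set as a term, and Yap1 (-0.035) and Vgll3 (0.42) in the second set. With a library left out the ranges that crossed 0 were, for EHE17 against EHE6, Camta2 -0.31 to 0.071, Tead1 -0.20 to 0.20, Tead3 -2.37 to 1.33 and Tead4 -0.39 to 0.062. For EHE26 against EHE6 they were Camta1 -0.091 to 0.17, Tead2 -0.48 to 0.27 and Tead4 -0.15 to 0.42, and for EHE26 against EHE17 Wwtr1 -0.12 to 0.24, Tead1 -0.017 to 0.38 and Vgll4 -0.70 to 0.085.

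Log2 ratios changed sign in the first set for EHE17 against EHE6 (Camta1 to Wwtr1 -0.050, Yap1 to Wwtr1 -0.25), and in the second set for Camta1 to Wwtr1 in EHE26 against EHE6 (0.34) and for Yap1 to Wwtr1 (-0.39) and Vgll4 to Vgll3 (-0.86) in EHE26 against EHE17. With a library left out, Camta1 to Wwtr1 ran from -0.054 to 0.35 and Yap1 to Wwtr1 from -0.043 to 0.42 for EHE17 against EHE6. Yap1 to Wwtr1 ran from -0.031 to 0.42 for EHE26 against EHE6 and from -0.19 to 0.21 for EHE26 against EHE17, and the summed TEAD ratio for EHE26 against EHE17 from -0.24 to 0.0065. Ratios by the longest transcript were added after seeing the data. The TEAD shares moved by less than their SD with it.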

Other observations

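The tested genes within 5 Mb of each member were read as a description of its neighbourhood. Around Camta1 the median log2 fold change of 165 neighbours was 0.15 between EHE17 and EHE6, -0.028 between EHE26 and EHE6 and -0.13 between EHE26 and EHE17, beside 0.42, 0.058 and -0.37 for Camta1 itself. Around Wwtr1 the 57 neighbours had medians of -0.15, -0.094 and -0.0068 beside 0.22, 0.27 and 0.053. Around Yap1 the 29 neighbours had medians of 0.066, 0.23 and 0.32 beside 0.40, 0.48 and 0.077, and 3 of them were called between EHE26 and EHE6 and 2 between EHE26 and EHE17, where 1.26% and 1.08% of all tested genes were called. Of the neighbours of Camta1, 4 were called between EHE26 and EHE6, and of those of Tead3, 1. The 250 neighbours of Tead3 had medians of -0.026, -0.21 and -0.22 beside -1.83, 0.74 and 2.57, and the 12 neighbours of Vgll3 had 0.17, 0.35 and 0.13 beside 3.90, 1.61 and -2.29. The 194 of Camta2 had -0.11, -0.26 and -0.19 beside -0.16, -0.86 and -0.70. For Tead1 the 75 had -0.095, -0.074 and -0.066 beside 0.035, 0.18 and 0.15. For Tead2 the 155 had 0.098, -0.15 and -0.39 beside 0.43, -0.068 and -0.49. For Tead4 the 116 had -0.25, -0.31 and -0.14 beside -0.25, 0.12 and 0.37. For Vgll4 the 103 had -0.10, -0.41 and -0.32 beside 0.73, 0.47 and -0.26.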
